A study of Mus musculus with 48 samples.

Results

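The expression of 10 immediate-early and ERK feedback genes was followed by RNA-Seq in murine striatal progenitor cells. The genes are the AP-1 subunits Fos, Fosl1, Jun and Junb, the transcription factor Egr1, the dual-specificity phosphatases Dusp4, Dusp5 and Dusp6, and the Sprouty genes Spry2 and Spry4. They were chosen by symbol among the 27281 genes of the authors' abundance table, of which 18178 carry a symbol. All 10 were found and all 10 passed the minimum mean log2 abundance of 1, as did 13409 genes in all.

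The study asked what small molecules that protect a cell model of Huntington's disease do inside the cell. RNA was profiled in 48 samples, 3 in each of 16 conditions. STHdhQ111 cells carry an expanded huntingtin allele as a homozygous knock-in, and STHdhQ7 cells are the wild type. Both are conditionally immortalized lines on a C57BL/6 background, and each genotype is represented by 1 line, so genotype and line cannot be told apart.

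All samples, controls included, were kept for 24 h in medium without serum. STHdhQ111 cells received DMSO vehicle (Q111SST) or a compound, and STHdhQ7 cells received vehicle (Q7SST). The dose was 10 µM for diacylglycerol kinase inhibitor II (DKI), selisistat, loxapine, cyproheptadine and meclizine, and 5 µM for pizotifen. Cysteamine was given at 250 µM, sodium butyrate at 1 mM, 4-deoxypyridoxine (DOP) at 4 mM and fingolimod phosphate at 250 nM. Trichostatin A was used at 10 nM, nortriptyline at 1 nM, and nicotinamide and haloperidol at 0.5 nM. In the study, Group A is pizotifen, loxapine and cyproheptadine, and Group B is meclizine and DKI. These 5 compounds were singled out because their expression profiles in these same samples lay together, so their difference from vehicle is not independent of that choice, whereas the split into Groups A and B came from metabolite profiles.

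Immediate-early genes are transcribed within minutes of a growth factor, serum or stress signal, without new protein synthesis, and most of them encode transcription factors. Growth factor receptors pass the signal through RAS, RAF and MEK to the kinases ERK1 and ERK2, which activate factors bound at the promoters of these genes. ERK also raises its own inhibitors: DUSP4, DUSP5 and DUSP6 remove phosphate from ERK, and the Sprouty proteins act between the receptor and RAF. Group A compounds had been linked to higher ERK activation in earlier work named by the study.

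Levels are the authors' normalized abundances on a log2 scale, and a difference is a fitted log2 difference after removal of the collection day, with its standard error (SE). A gene was called when its limma p-value, adjusted over the 13409 genes by the Benjamini-Hochberg method, was under 0.05. Nothing in the labels says that the 3 samples of a condition came from separate cultures, so p-values measure only the spread between these samples, which may be technical. The table holds no read counts and the depth of each sample is unknown. Genes with low values hardly vary in it, with a median standard deviation of 0.00511 over samples for means under 0 and 0.153 for means from 3 to 6, so differences of Spry4, with a mean level of 2.86, are compressed. Positions are those of the GENCODE annotation of GRCm38. The library kit keeps the strand, but whether counting used it is not given in the sources used here, so reads from a gene named below as lying opposite a member cannot be told from the member's own. No value is per gene length, and levels were not compared between genes. In bulk RNA, fewer expressing cells and less RNA per cell cannot be told apart.

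Replicates correlated across genes with mean r from 0.9967 to 0.9993, and the linear sums of the samples differed by at most 1.11 times. Of the progenitor markers, Vim lay at 15.42 in Q111SST and Nes at 4.96, against 10.95 for Nes in Q7SST, and Sox1 (-2.34) stayed near the floor of the table. The striatal marker Drd1 (-2.18) and the neuronal marker Rbfox3 (-2.13) were near the floor as well, while the mesenchymal gene Col1a1 reached 14.63 in Q111SST. Markers of the same lists were mixed in Q111SST. Foxp1 (9.99) and Meis2 (7.51) among the striatal and Map2 (8.40) among the neuronal markers were well above the floor. Tac1 (-0.42) and Snap25 (-0.83) were low. Several libraries stood apart in the 10 genes. In DKI replicate 1, 9 of the 10 lay above the condition mean, and in DKI replicate 2 none did. All 10 lay above it in meclizine replicate 2, none in meclizine replicate 3, and 9 in Q7SST replicate 1.

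The labels place each condition in fixed slots of day and time, and Q111SST shares all its slots only with Q7SST and selisistat. Loxapine, sodium butyrate, DOP and cysteamine were collected in the same slots as nicotinamide and nortriptyline, and pizotifen, meclizine, trichostatin A and fingolimod phosphate in those of haloperidol. Each of these 8 compounds was therefore also compared with its slot partners, which are cells treated at 1 nM or less and not untreated cells. Cyproheptadine and DKI have no sample from day 1 and share their slots with each other.

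Against Q111SST, the 3 Group A compounds changed the 10 genes in 1 direction only. Loxapine raised 8 of the 10, beside 10.1% of all genes tested. Cyproheptadine raised 6, beside 17.5% of all genes, and pizotifen raised 5, beside 8.86%. None of the 10 fell with these compounds, beside 11.8%, 18.2% and 9.07% of all genes, and the median difference of the 10 was 0.48 for loxapine, 0.43 for cyproheptadine and 0.29 for pizotifen, with medians over all genes between -0.0047 and 0.0048.

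With the Group B compounds, genes were called in both directions. DKI raised 4 (20.4% of all genes rose) and lowered 2 (21.9% fell). Meclizine raised 2 (13.1% of all genes) and lowered 3 (13.6%). The falls with DKI and the rises with meclizine were near the shares of all genes, so these counts are not particular to the 10 genes. The median difference of the 10 was 0.20 for DKI and -0.06 for meclizine. All these comparisons share the 3 Q111SST samples.

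The other 9 compounds left most of the genes uncalled. Sodium butyrate raised 2 of the 10, beside 19.6% of all genes, and cysteamine raised 1, beside 2.33%. Trichostatin A, DOP, nortriptyline, nicotinamide, selisistat, fingolimod phosphate and haloperidol gave 0 called by limma, beside 13.1%, 20.1%, 3.83%, 10.4%, 0.515%, 0.0597% and 0% of all genes in either direction. At an unadjusted p under 0.05 these 7 gave 4, 1, 1, 2, 0, 0 and 0 of the 10. Of the 13409 genes tested, 3598, 4316, 2486, 3542, 2307, 1404 and 397 lay under that threshold, in the same order. STHdhQ7 cells differed from STHdhQ111 cells in 7 of the 10, with 6 higher (29.2% of all genes were higher) and 1 lower (26.6%).

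**Figure D1:**
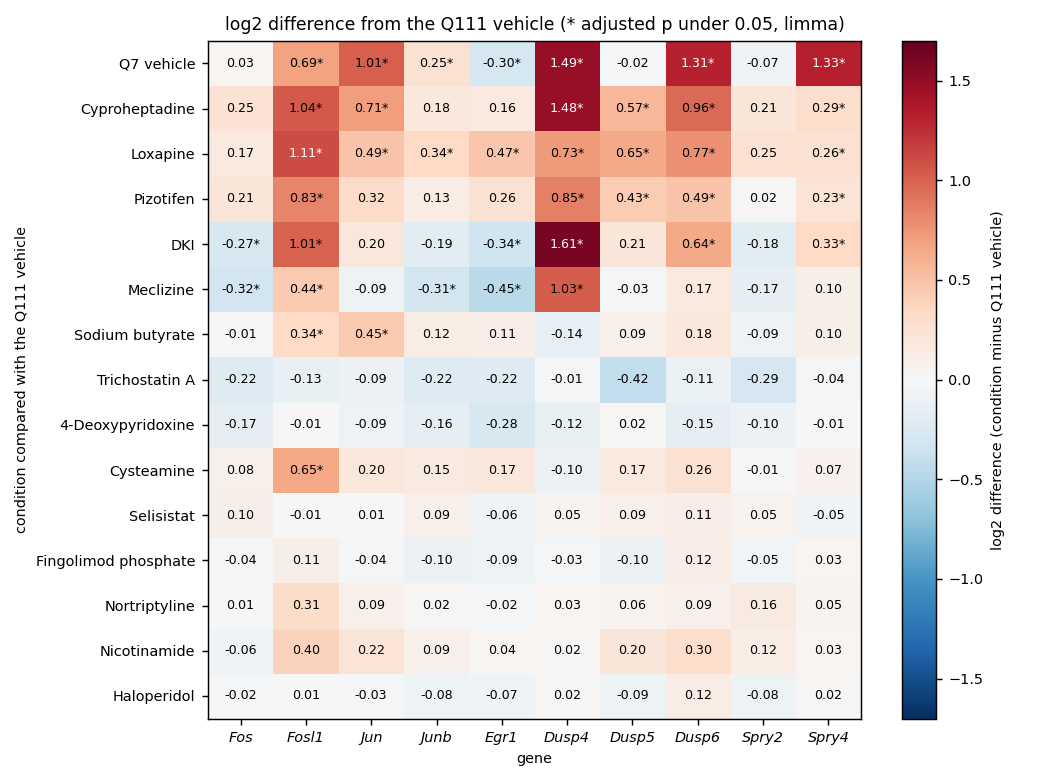
Fitted log2 difference of each of the 10 genes (columns) from the STHdhQ111 vehicle control, for 14 compounds and for STHdhQ7 cells (rows), on a colour scale from blue (lower) to red (higher); a star marks an adjusted p under 0.05 in limma. Fosl1 and Dusp4 carry stars in all 5 Group A and B compounds, while Fos and Egr1 are above 0 in Group A and below 0 in Group B.

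Fos (ENSMUSG00000021250, chr12:85473890-85477273, plus strand) encodes the founding partner of Jun in AP-1. Its levels in Q111SST were 5.87, 5.98 and 5.89. They were 5.64, 5.56 and 5.74 with DKI and 5.60, 5.86 and 5.32 with meclizine. All 6 Group B samples lay below the 3 vehicle samples. So did those of trichostatin A (5.62 to 5.77) and DOP (5.68 to 5.80), with uncalled differences of -0.22 and -0.17. The log2 difference was -0.27 (SE 0.11, adjusted p = 0.0408) for DKI and -0.32 (SE 0.11, adjusted p = 0.0217) for meclizine. Cyproheptadine samples stood at 6.09, 6.24 and 6.16, above all vehicle samples, and loxapine (6.30, 6.01 and 5.94) and pizotifen (6.34, 5.98 and 6.05) overlapped them. None of the 3 was called, with 95% intervals of the difference from 0.03 to 0.47, from -0.05 to 0.38 and from -0.01 to 0.42. The meclizine call was lost without meclizine replicate 3, where the difference was -0.17, without meclizine replicate 1 (-0.32) and without Q111SST replicate 2 (-0.28). The DKI call was lost in 5 of the 6 single omissions, each but that of DKI replicate 3, with differences from -0.29 to -0.22.

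Fosl1 (ENSMUSG00000024912, chr19:5447547-5455946, plus strand) encodes FRA-1, a FOS relative that typically accumulates late and stays up while ERK is active. It lies opposite Ccdc85b on the other strand. In Q111SST it measured 7.21, 7.32 and 7.41. Loxapine samples were at 8.28, 8.55 and 8.45, cyproheptadine at 8.14, 8.48 and 8.44, and pizotifen at 8.12, 8.20 and 8.10. DKI samples were at 8.75, 7.97 and 8.24 and meclizine at 7.80, 7.97 and 7.50. All 15 samples of the 5 compounds lay above all vehicle samples, and meclizine replicate 3 came closest to them. The difference was 1.11 (SE 0.13, adjusted p = 3.28e-07) for loxapine, 2.16 times on the linear scale, and 1.04 (SE 0.14, adjusted p = 1.64e-07) for cyproheptadine. It was 1.01 for DKI, 0.83 for pizotifen and 0.44 for meclizine, with adjusted p of 1.23e-07, 3.08e-05 and 0.0117 from limma. The meclizine call was lost without meclizine replicate 2 (0.32) or Q111SST replicate 1 (0.39).

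Fosl1 was called, as higher, in 7 of the 14 compounds, Dusp4 in 5, Dusp6 and Spry4 in 4, and Jun and Dusp5 in 3. Cysteamine samples stood at 7.85, 7.99 and 8.07, with a difference of 0.65 (SE 0.13, adjusted p = 0.00224). Sodium butyrate samples stood at 7.61, 7.63 and 7.72, with 0.34 (SE 0.13, adjusted p = 0.0431). The slot partners of both compounds were also above the vehicle, nicotinamide at 7.71, 7.70 and 7.73 and nortriptyline at 7.51, 7.58 and 7.78, without a call (adjusted p = 0.0505 and 0.198 from limma). Without Q111SST replicate 3, nicotinamide was called (0.45). Against these partners the cysteamine difference was 0.30 (95% interval 0.07 to 0.54, adjusted p = 0.411) and that of sodium butyrate -0.01 (-0.25 to 0.22, adjusted p = 0.948). For these compounds, an effect on Fosl1 and the collection slot cannot be told apart in the comparison with the vehicle. The sodium butyrate call was also lost in 5 of its 6 single omissions, each but that of Q111SST replicate 3, with differences from 0.28 to 0.37.

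Jun (ENSMUSG00000052684, chr4:95049034-95052222, minus strand, with the antisense gene Junos opposite) encodes the central AP-1 subunit, which JNK as well as ERK signals activate. Q111SST samples lay at 8.37, 8.31 and 8.45. Cyproheptadine samples lay at 9.01, 9.18 and 9.09 and loxapine samples at 8.89, 8.89 and 8.83, all above the vehicle. The difference was 0.71 (SE 0.12, adjusted p = 1.02e-05) and 0.49 (SE 0.12, adjusted p = 0.0024). Pizotifen samples (8.66, 8.81 and 8.64) did not overlap the vehicle either, but the difference of 0.32 was not called (adjusted p = 0.0507, 95% interval 0.09 to 0.56). Group B compounds were not called, with intervals from -0.05 to 0.44 for DKI and from -0.33 to 0.15 for meclizine. Sodium butyrate, a histone deacetylase inhibitor, raised Jun to 8.61, 8.94 and 8.93, a difference of 0.45 (SE 0.12, adjusted p = 0.00269). With trichostatin A, also such an inhibitor, the difference was -0.09 and not called. Samples of nicotinamide, a slot partner of sodium butyrate, also lay above the vehicle (8.52 to 8.72), without a call.

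Junb (ENSMUSG00000052837, chr8:84974484-84978718, minus strand, with Prdx2 opposite) encodes an AP-1 subunit that can restrain JUN. It ranged little, from condition means of 9.46 with meclizine to 10.11 with loxapine. Vehicle samples were at 9.67, 9.75 and 9.88, loxapine samples at 10.20, 10.14 and 9.98 and meclizine samples at 9.40, 9.61 and 9.36. Neither compound overlapped the vehicle. Loxapine raised Junb by 0.34 (SE 0.088, adjusted p = 0.00466) and with meclizine the difference was -0.31 (SE 0.088, adjusted p = 0.00687). The meclizine call was lost without its replicate 3 (-0.26) or without Q111SST replicate 3 (-0.25). For DKI (9.72, 9.42 and 9.60) the difference of -0.19 was not called, and without its replicate 1 it was -0.26 and called.

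Egr1 (ENSMUSG00000038418, chr18:34859823-34864984, plus strand), a zinc finger factor induced through serum response elements, was split by the 2 groups in the same way as Fos. Vehicle samples were at 10.30, 10.41 and 10.37 and loxapine samples at 11.01, 10.73 and 10.74. DKI samples were at 10.24, 9.83 and 10.00 and meclizine samples at 9.85, 10.16 and 9.71. Loxapine lay wholly above and both Group B compounds wholly below the vehicle. Trichostatin A (10.10 to 10.20) and DOP (9.96 to 10.22) also lay wholly below it, with uncalled differences of -0.22 and -0.28. The difference was 0.47 (SE 0.11, adjusted p = 0.00225) for loxapine, -0.34 (SE 0.11, adjusted p = 0.0139) for DKI and -0.45 (SE 0.11, adjusted p = 0.002) for meclizine. Cyproheptadine (0.16, 95% interval -0.07 to 0.39) and pizotifen (0.26, 0.03 to 0.48) were not called. The DKI call was lost without DKI replicate 2 (-0.23) or Q111SST replicate 2 (-0.31).

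**Figure D2:**
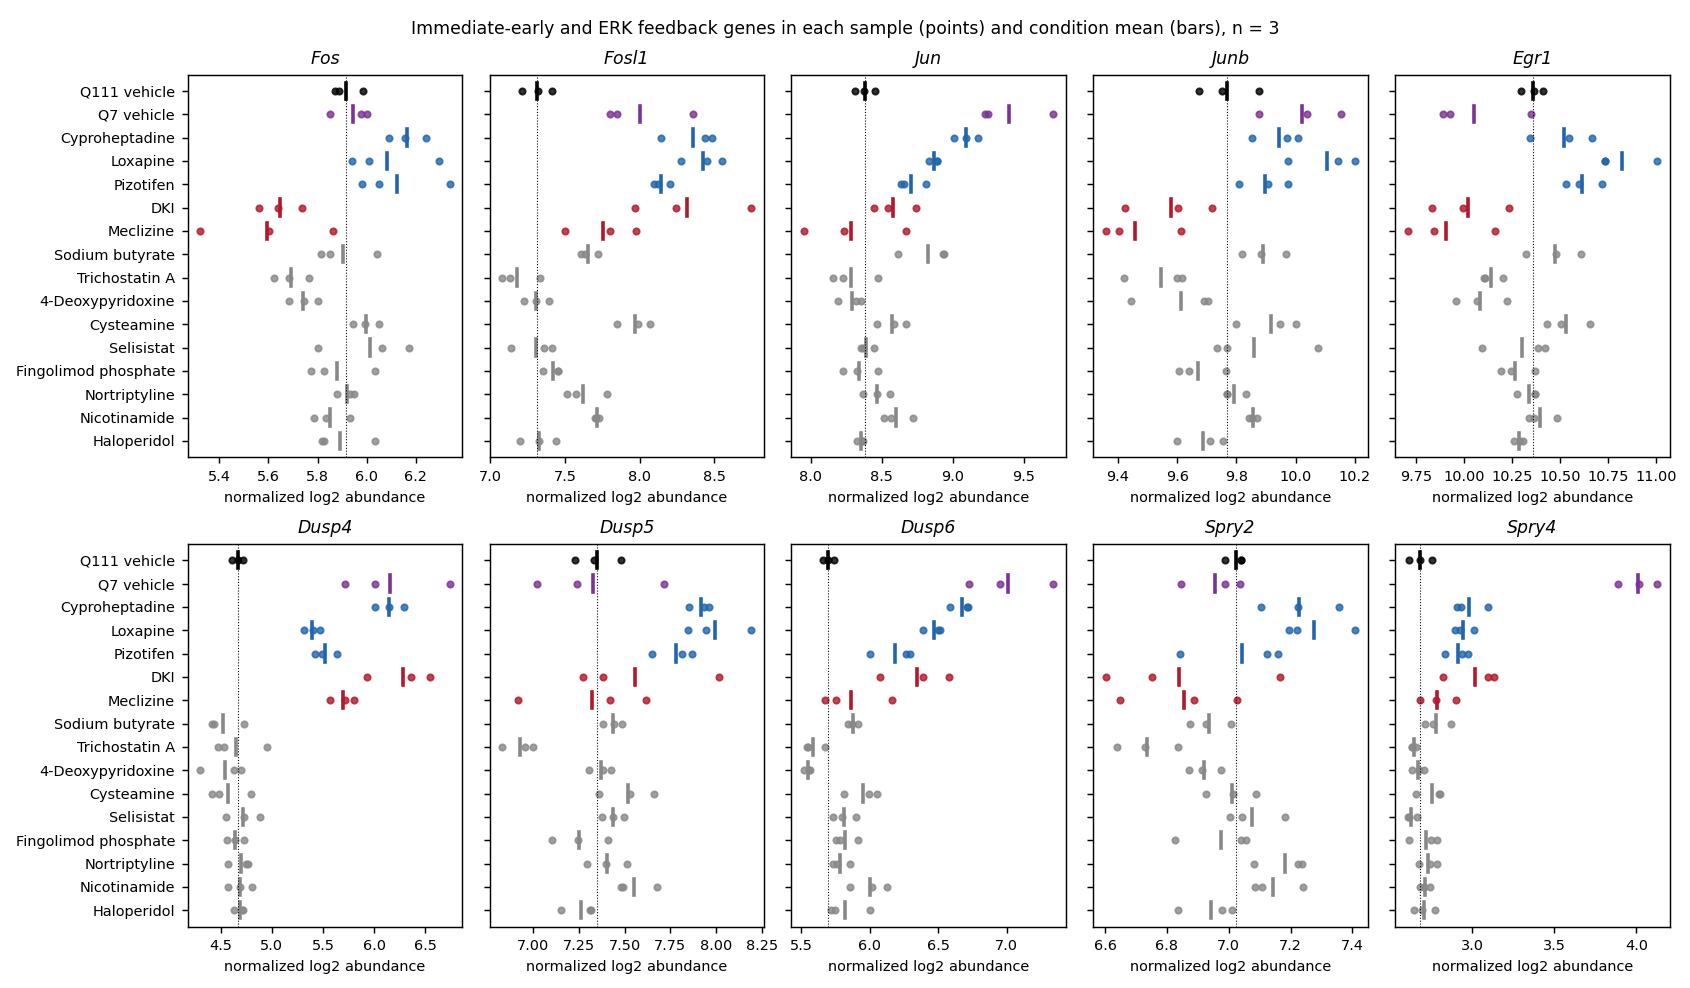
Normalized log2 abundance (horizontal axis, a separate scale per gene) of each of the 10 genes in each of 48 samples; points are samples, bars are means of 3, colours mark the STHdhQ111 vehicle (black, its mean as a dotted line), STHdhQ7 vehicle (purple), Group A (blue), Group B (red) and the other compounds (grey). Dusp4 shows the grey conditions between 4.30 and 4.95 and every Group A, Group B and STHdhQ7 sample at 5.32 or above.

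Dusp4 (ENSMUSG00000031530, chr8:34807297-34819894, plus strand) encodes a nuclear phosphatase of ERK and JNK, and it had the widest range of condition means among the 10 genes, 1.75. The vehicle gave levels of 4.67, 4.72 and 4.61. DKI samples were at 6.54, 5.93 and 6.36, cyproheptadine samples at 6.01, 6.14 and 6.30, and meclizine samples at 5.71, 5.81 and 5.57. Pizotifen samples were at 5.64, 5.49 and 5.42 and loxapine samples at 5.32, 5.40 and 5.47. No sample of the 5 compounds reached down to any sample of the vehicle or of the other 9 compounds. The difference was 1.61 (SE 0.16, adjusted p = 2.24e-10) for DKI, 3.06 times on the linear scale, and 1.48 (SE 0.16, adjusted p = 5.4e-09) for cyproheptadine. It was 1.03 for meclizine, 0.85 for pizotifen and 0.73 for loxapine, with adjusted p of 5.94e-06, 0.000206 and 0.001 from limma. These 5 calls held in every omission of a single library. None of the other 9 compounds was called, and their differences lay between -0.14 and 0.05.

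Dusp5 (ENSMUSG00000034765, chr19:53529109-53542431, plus strand, with the antisense gene AC137853.2 opposite) encodes a nuclear phosphatase specific for ERK and was called, as higher, for the 3 Group A compounds. The vehicle gave levels of 7.23, 7.33 and 7.48. Loxapine samples were at 8.19, 7.94 and 7.85, cyproheptadine samples at 7.85, 7.94 and 7.96, and pizotifen samples at 7.81, 7.87 and 7.65. All 9 lay above the vehicle. The difference was 0.65 (SE 0.15, adjusted p = 0.00148) for loxapine, 0.57 (SE 0.15, adjusted p = 0.0027) for cyproheptadine and 0.43 (SE 0.15, adjusted p = 0.0372) for pizotifen. The pizotifen call was lost without replicate 1 or 2 of pizotifen or of Q111SST, with differences from 0.37 to 0.43. DKI (8.02, 7.27 and 7.38) and meclizine (7.42, 7.62 and 6.92) overlapped the vehicle, with intervals from -0.09 to 0.51 and from -0.33 to 0.27. The high DKI sample is replicate 1 and the low meclizine sample is replicate 3.

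Dusp6 (ENSMUSG00000019960, chr10:99263231-99267489, plus strand) encodes the cytoplasmic ERK phosphatase, often used as a reading of ERK output. In the vehicle the levels were 5.70, 5.74 and 5.66. Cyproheptadine samples were at 6.72, 6.59 and 6.71, loxapine samples at 6.52, 6.39 and 6.50, and pizotifen samples at 6.01, 6.26 and 6.29. DKI samples were at 6.58, 6.08 and 6.39 and meclizine samples at 5.75, 6.17 and 5.67. Only meclizine overlapped the vehicle. The difference was 0.96 (SE 0.12, adjusted p = 6.38e-08) for cyproheptadine, 0.77 (SE 0.12, adjusted p = 1.1e-05) for loxapine, 0.64 for DKI (adjusted p = 3.21e-05) and 0.49 for pizotifen (adjusted p = 0.00304). Meclizine was not called (0.17, 95% interval -0.07 to 0.40), and its highest sample is replicate 2.

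The promoters of Dusp5 and Dusp6 are shown because both genes rose in Group A and differ in the letters they hold near the start site. The sequences are from RefSeq on GRCm38.p6, from 250 bases before to 50 bases after the start, and capitals mark matches to the CArG box, the element bound by serum response factor. The Dusp5 window is chr19:53528895-53529194 on the plus strand and the Dusp6 window is chr10:99262981-99263280 on the plus strand.
Dusp5: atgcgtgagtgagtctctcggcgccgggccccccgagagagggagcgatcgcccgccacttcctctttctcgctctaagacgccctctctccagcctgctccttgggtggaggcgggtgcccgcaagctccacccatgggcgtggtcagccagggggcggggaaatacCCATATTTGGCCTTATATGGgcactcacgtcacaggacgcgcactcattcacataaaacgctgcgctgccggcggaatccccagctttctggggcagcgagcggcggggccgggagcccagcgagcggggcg
Dusp6: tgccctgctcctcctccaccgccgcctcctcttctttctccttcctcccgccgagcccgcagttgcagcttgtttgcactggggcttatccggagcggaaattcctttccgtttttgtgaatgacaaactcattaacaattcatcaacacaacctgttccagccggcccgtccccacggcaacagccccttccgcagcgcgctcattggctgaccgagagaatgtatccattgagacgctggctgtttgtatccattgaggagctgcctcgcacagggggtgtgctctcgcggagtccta

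The Dusp5 window holds 2 CArG boxes side by side, whose first bases lie at -82 and -72 from the start, and the Dusp6 window holds no match. A CArG box was found in 1.63% of 32851 promoters of the same length, searched on both strands. The AP-1 site TGANTCA (7.81% of promoters), the cyclic AMP element TGACGTCA (1.79%) and TGATGNAA (3.97%) were absent from the windows of all 6 genes with an entry, which are Fos, Jun, Junb, Dusp5, Dusp6 and Spry2. The ETS core CCGGAA (14.9%) was found in the Spry2 window alone. These matches describe letters in 300 bases and not binding. Only exact matches were sought, so variant forms of these sites and sites outside the windows were not looked for. The table had no entry used here for Fosl1, Dusp4, Egr1 or Spry4.

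Spry2 (ENSMUSG00000022114, chr14:105891947-105896819, minus strand) encodes a Sprouty inhibitor of receptor tyrosine kinase signalling and was called for none of the 14 compounds, with differences between -0.29 and 0.25. In the vehicle the levels were 7.04, 6.99 and 7.04. Loxapine samples (7.41, 7.19 and 7.22) and cyproheptadine samples (7.36, 7.10 and 7.22) lay above them, with 95% intervals of the difference from 0.04 to 0.46 and from -0.01 to 0.42. Trichostatin A samples (6.64, 6.84 and 6.73) lay below them, with an interval from -0.50 to -0.08 and an adjusted p of 0.0607 from limma. For DKI (7.17, 6.60 and 6.75) the difference of -0.18 was not called, and without its replicate 1, the highest, it was -0.34 and called.

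Spry4 (ENSMUSG00000024427, chr18:38586247-38601415, minus strand, with Gm27369 and Gm27804 opposite) encodes a further Sprouty inhibitor, and rose with the same 4 compounds as Dusp6. Levels with vehicle were 2.69, 2.75 and 2.62. DKI samples were at 3.13, 2.82 and 3.10, cyproheptadine samples at 2.91, 3.10 and 2.93, loxapine samples at 3.01, 2.90 and 2.92, and pizotifen samples at 2.94, 2.84 and 2.98. All 12 lay above the vehicle. The difference was 0.33 (SE 0.069, adjusted p = 0.000153) for DKI, 0.29 for cyproheptadine, 0.26 for loxapine and 0.23 for pizotifen (adjusted p = 0.000912, 0.00535 and 0.0149). The pizotifen call was lost without its replicate 1 (0.22) or 3 (0.20) or without Q111SST replicate 3 (0.20). Meclizine was not called (0.10, 95% interval -0.03 to 0.24).

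With the slot partners as the reference, loxapine raised 8 of the 10 (11.9% of all genes rose), with 0.76 for Fosl1, 0.70 for Dusp4, 0.58 for Dusp6, 0.52 for Dusp5 and 0.46 for Egr1. Its Fosl1 difference was 1.11 against the vehicle. Without loxapine replicate 1 the count was 5, with Jun (0.32), Junb (0.23) and Spry4 (0.18) lost, and Jun (0.33) was also lost without loxapine replicate 2. Pizotifen raised 7 (7.59% of all genes), with 0.83 for Dusp4 and 0.82 for Fosl1 against haloperidol, and Jun and Egr1 joined the genes called against the vehicle. Fosl1 and Dusp4 were called in every omission of a single library. The count was 2 without haloperidol replicate 3, 3 without haloperidol replicate 1 or pizotifen replicate 1 or 2, 4 without pizotifen replicate 3 and 5 without haloperidol replicate 2.

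Meclizine against haloperidol again raised Fosl1 and Dusp4 (12.9% of all genes rose) and lowered Fos, Junb and Egr1 (12.8% fell). The difference was 1.01 (SE 0.16) for Dusp4, 0.43 (SE 0.13) for Fosl1, -0.38 (SE 0.11) for Egr1, -0.30 (SE 0.11) for Fos and -0.23 (SE 0.088) for Junb. Fos and Junb samples of meclizine overlapped those of haloperidol, and within collection days both differences changed sign between collection days. Without meclizine replicate 3, Fos (-0.15), Junb (-0.18) and Egr1 (-0.27) were not called, and without meclizine replicate 1 neither were Fos (-0.30), Junb (-0.20), Egr1 (-0.35) and Fosl1 (0.41). Fosl1 was also lost without meclizine replicate 2 (0.32). Without haloperidol replicate 3, Fos (-0.22), Junb (-0.22) and Fosl1 (0.37) were not called, and without haloperidol replicate 1 Junb (-0.19) was not.

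For the other compounds, sodium butyrate raised Jun alone against its slot partners (17% of all genes rose), by 0.29 (SE 0.10, adjusted p = 0.0264), and its samples overlapped theirs. This call was lost without sodium butyrate replicate 2 (0.24) or 3 (0.23), nicotinamide replicate 1 (0.27) or nortriptyline replicate 2 (0.26). DOP lowered Fosl1 and Dusp6 (5.08% of all genes fell), with differences of -0.36 and -0.35 and adjusted p of 0.0407 and 0.0242 from limma. Neither gene was called for DOP against the vehicle, with intervals from -0.28 to 0.27 and from -0.39 to 0.09. The Fosl1 call of DOP was lost in 8 of 9 single omissions, each but that of nortriptyline replicate 1, with differences from -0.40 to -0.32. Its Dusp6 call was lost without any of its 3 replicates or nicotinamide replicate 3, with differences from -0.36 to -0.32. Cysteamine, trichostatin A and fingolimod phosphate gave 0 called by limma, beside 0.119%, 11.1% and 0% of all genes. At an unadjusted p under 0.05 these compounds gave 1, 1 and 0 of the 10. Of the 13409 genes tested, 1170, 3343 and 1033 lay under that threshold, in the same order.

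**Figure D3:**
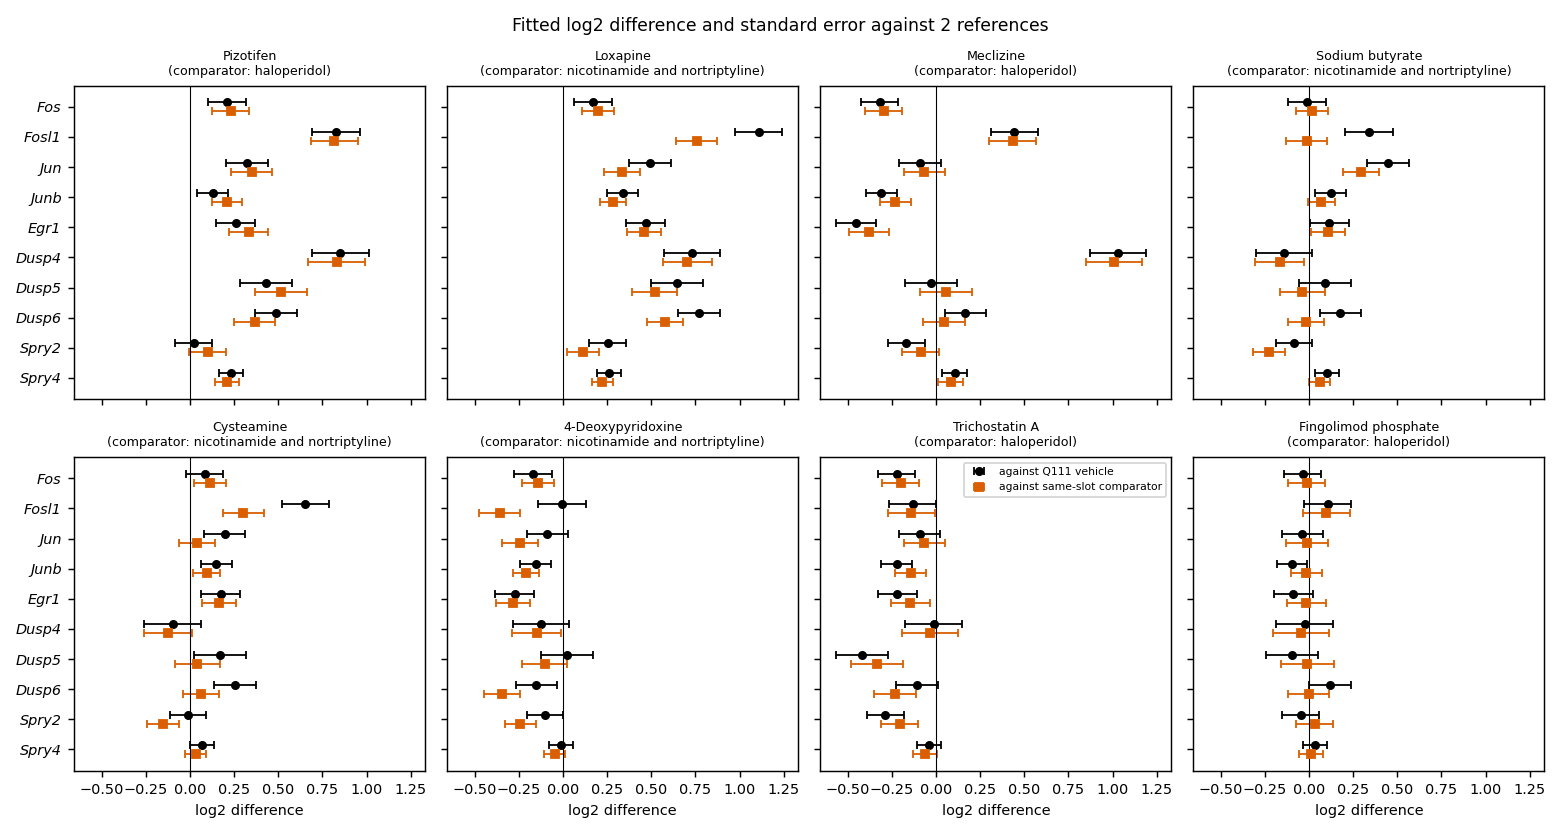
Fitted log2 difference with its standard error for the 10 genes in 8 compounds, against the STHdhQ111 vehicle (black circles) and against the compounds collected in the same day and time slots (orange squares). For pizotifen, loxapine and meclizine both references give Dusp4 differences of 0.70 or more, whereas Fosl1 moves from 0.65 to 0.30 for cysteamine and from 0.34 to -0.01 for sodium butyrate.

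Groups A and B were compared directly, without the vehicle, to ask which of the genes separate them. The p-values of this comparison measure the spread between samples within a compound. They do not measure the spread between the compounds averaged on each side. The mean of Group A exceeded that of Group B in 8 of the 10 genes, beside 19.9% of all genes tested, and was below it in 1, beside 21.4%. Egr1 differed by 0.69 (SE 0.072, adjusted p = 4.59e-10), Fos by 0.50 (SE 0.068, adjusted p = 1.44e-07) and Junb by 0.46 (SE 0.057, adjusted p = 1.55e-08). For these 3 genes all 9 Group A samples lay above all 6 Group B samples. The share of all genes without such overlap was not counted, so this describes the samples only. Jun (0.46), Dusp5 (0.46), Dusp6 (0.34), Spry2 (0.33) and Fosl1 (0.27) were higher in Group A with overlap. For Fosl1 the mean of DKI (8.32) lay above that of pizotifen (8.14).

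The mean of Dusp4 went the other way and was lower in Group A, with a difference of -0.30 (SE 0.10, adjusted p = 0.0184). The groups overlapped: the cyproheptadine samples of Group A (6.01 to 6.30) lay above the meclizine samples of Group B (5.57 to 5.81). Spry4 was not called, with a 95% interval from -0.05 to 0.13. All 9 called genes kept their direction within each collection day, from 0.56 to 1.02 for Egr1, from 0.37 to 0.72 for Fos and from -0.36 to -0.19 for Dusp4. These daily values are plain means of the samples present, so the mix of compounds differs between days. Day 1 holds no cyproheptadine or DKI sample. The Dusp4 call was lost without DKI replicate 1 (-0.23). The Fosl1 call was lost without DKI replicate 2 (0.17) or meclizine replicate 3 (0.20).

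**Figure D4:**
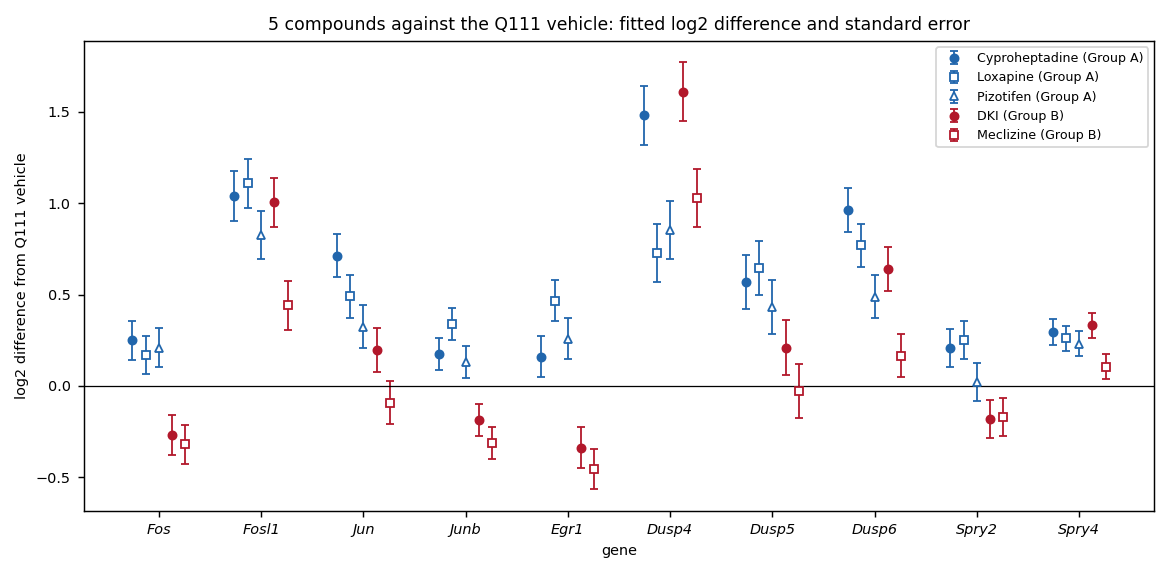
Fitted log2 difference from the STHdhQ111 vehicle (vertical axis) with its standard error for the 10 genes in the 3 Group A compounds (blue) and the 2 Group B compounds (red). Red points are below 0 for Fos, Junb, Egr1 and Spry2 where blue points are above it, and both colours are above 0.4 for Fosl1 and 0.7 for Dusp4.

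Cyproheptadine and DKI, at the same dose and in the same slots, differed in 6 of the 10 genes, all higher with cyproheptadine (13.9% of all genes were higher). The difference was 0.52 (SE 0.11) for Fos, 0.52 (SE 0.12) for Jun, 0.50 (SE 0.11) for Egr1, 0.39 (SE 0.10) for Spry2, 0.36 (SE 0.088) for Junb and 0.32 (SE 0.12) for Dusp6. Fosl1, Dusp4 and Spry4 were not called, with 95% intervals from -0.24 to 0.31, from -0.45 to 0.20 and from -0.18 to 0.10. Dusp5 was not called either (0.36, 0.06 to 0.66), but without DKI replicate 1 the difference was 0.59 and called. Without DKI replicate 2 the calls of Dusp6 (0.18) and Spry2 (0.26) were lost, and Dusp6 was also lost without DKI replicate 3 (0.34) or cyproheptadine replicate 1 (0.30) or 3 (0.31).

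Within Group A, cyproheptadine and loxapine at 10 µM differed in Dusp4 alone (4.91% of all genes were higher with cyproheptadine), by 0.75 (SE 0.16, adjusted p = 0.00167). The 95% intervals of the genes not called reached from -0.53 to -0.08 for Egr1 and from -0.02 to 0.46 for Jun. For Egr1 the difference was -0.39 and called without cyproheptadine replicate 2. Pizotifen was given at 5 µM and was not tested against them: its differences from vehicle of 0.83 for Fosl1, 0.85 for Dusp4 and 0.49 for Dusp6 stand beside 1.04, 1.48 and 0.96 for cyproheptadine.

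Within Group B, meclizine lay below DKI in Fosl1 (-0.56), Dusp4 (-0.58), Dusp6 (-0.47) and Spry4 (-0.23), 4 of the 10 genes beside 4.3% of all genes. All 4 calls were lost without DKI replicate 1, the high library, with differences from -0.45 to -0.17, and all 4 without meclizine replicate 3, the low library, with differences from -0.52 to -0.17. Without DKI replicate 3, Dusp4 (-0.54) and Spry4 (-0.19) were not called, and without meclizine replicate 1 Spry4 (-0.23) was not. Jun (-0.29, adjusted p = 0.134 from limma) was called without meclizine replicate 2 (-0.49). Only the Dusp4 difference had the same sign on each collection day that both compounds share. Fos and Egr1, with intervals from -0.27 to 0.17 and from -0.34 to 0.11, were not called.

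**Figure D5:**
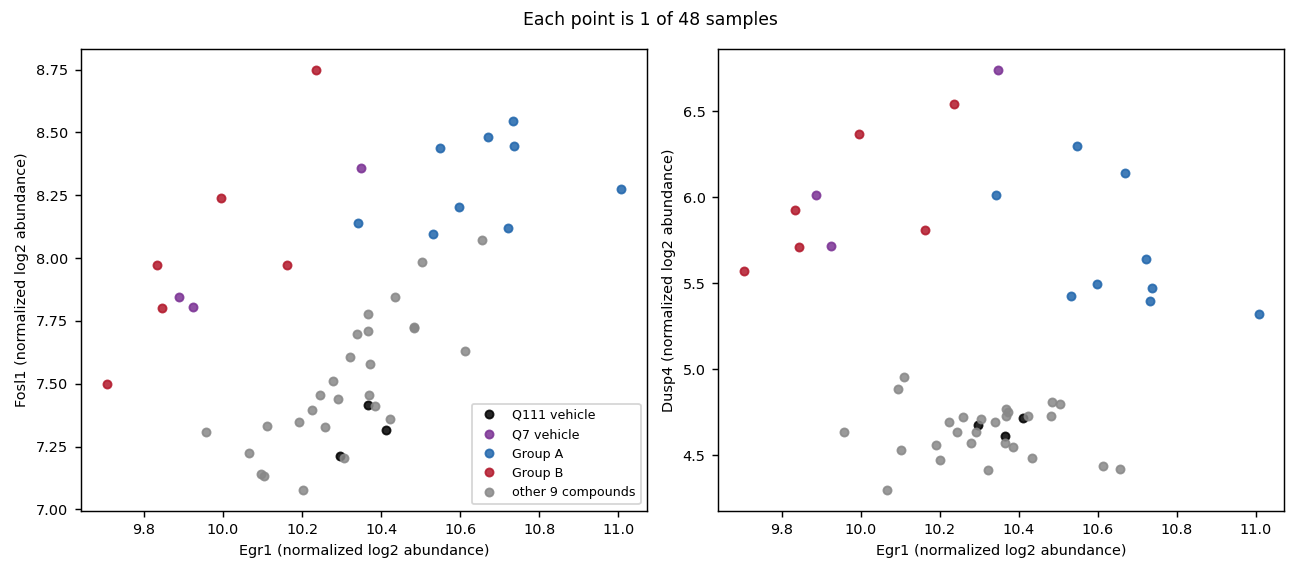
Normalized log2 abundance of Egr1 (horizontal axis) against Fosl1 (left, vertical axis) and Dusp4 (right, vertical axis), with 1 point for each of 48 samples. Group A (blue) and Group B (red) overlap in Fosl1 and Dusp4 and not in Egr1. STHdhQ7 replicates 2 and 3 (purple, Egr1 9.89 and 9.92) lie among or near the red points. Replicate 1 (Egr1 10.35) lies above all red points in Egr1.

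STHdhQ7 cells, compared with STHdhQ111 cells under vehicle, had higher Dusp4, Spry4, Dusp6, Jun, Fosl1 and Junb and lower Egr1. Dusp4 samples of STHdhQ7 cells were at 6.74, 6.01 and 5.72, Dusp6 samples at 7.34, 6.95 and 6.73, and Spry4 samples at 4.13, 4.02 and 3.89. All lay above the vehicle samples given for these genes, and Spry4 lay above all 45 samples of STHdhQ111 cells. The difference was 1.49 (SE 0.16, adjusted p = 2.92e-10) for Dusp4, 1.31 (SE 0.12, adjusted p = 3.01e-12) for Dusp6 and 1.33 (SE 0.069, adjusted p = 3.24e-19) for Spry4.

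Jun samples of STHdhQ7 cells were at 9.71, 9.25 and 9.23, with a difference of 1.01 (SE 0.12, adjusted p = 1.83e-09), and Fosl1 samples were at 8.36, 7.85 and 7.80, with 0.69 (SE 0.13, adjusted p = 3.45e-05). In both genes replicate 1 was the highest. Egr1 (10.35, 9.89 and 9.92) and Junb (10.15, 10.04 and 9.88) overlapped the vehicle samples, with differences of -0.30 (SE 0.11, adjusted p = 0.019) and 0.25 (SE 0.088, adjusted p = 0.013). Both differences changed sign between collection days, that of Egr1 going from -0.52 to 0.05. The Egr1 call was lost without replicate 2 (-0.22) or 3 (-0.23) of Q7SST or replicate 2 of Q111SST (-0.27), and the Junb call without replicate 1 of Q7SST (0.18) or of Q111SST (0.21). Fos, Dusp5 and Spry2 were not called, with 95% intervals from -0.19 to 0.24, from -0.32 to 0.28 and from -0.28 to 0.14.

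All 6 progenitor markers tested were higher in STHdhQ7 cells as well, beside 29.2% of all genes, with a median difference of 2.31. The summed level of the 8 listed markers ranged from 15.61 to 15.77 in Q7SST and from 15.39 to 15.52 in Q111SST, Sox1 being near the floor in both. This sum was carried by Vim, at 15.60 in Q7SST and 15.42 in Q111SST, while Nes stood at 10.95 and 4.96. The part of these marker differences in the differences of the 10 genes was not tested. In Group B, 2 of the 3 mesenchymal markers tested fell with each compound, beside 21.9% of all genes for DKI and 13.6% for meclizine. The summed level of this list over 5 genes was 14.10 to 14.55 in Group B, against 14.94 to 15.14 in Q111SST and 14.46 to 15.03 in Group A. Lum and Thy1 stayed below 0. The part of this difference was not tested either.

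The genes differed in how much of their variance lay between conditions. STHdhQ7 cells are 1 of the 16 conditions, and their Spry4 samples lay above all others. The share was 95.7% for Spry4, 93.4% for Dusp4, 91.4% for Dusp6 and 89.3% for Fosl1, beside a median of 75.7% over all genes tested. It was 64.6% for Spry2, 69.2% for Fos and 73.0% for Dusp5. The residual standard deviation of the 10 genes was 0.086 to 0.21, against a median of 0.086 over all genes.

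In the order of condition means, few neighbours stood apart. STHdhQ7 came highest for Jun, Dusp6 and Spry4, and did not overlap the next condition, which was cyproheptadine, cyproheptadine and DKI. Loxapine came highest for Egr1, Fosl1, Junb, Dusp5 and Spry2, and only for Egr1 did its samples all lie above those of the next condition, pizotifen. For Fos and Spry2 each of the 15 neighbouring pairs overlapped. For Dusp4, cyproheptadine was separated from meclizine below it, and loxapine from selisistat below it.

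Over the 16 condition means, Pearson's r between pairs of the 10 genes ranged from -0.17 to 0.92, with a median of 0.57 over 45 pairs. Over the residuals of the 48 samples the median was 0.53 and 44 of 45 pairs were above 0. The points share libraries and 1 of the 16 conditions is the STHdhQ7 line, so these values are descriptions.

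Among 10725 other genes with a mean of at least 5, those most like each member over 16 condition means were named by Pearson's r. For Dusp4 they were Hyou1 (0.975), Hspa5 (0.972) and Nfe2l1 (0.968), where Hspa5 and Hyou1 encode chaperones of the endoplasmic reticulum. For Dusp6 they were Epha2 (0.970), Smad7 (0.955) and Slc25a25 (0.949), and for Spry4 Cp (0.973), F2r (0.969) and Pigf (0.968). STHdhQ7 cells, a different line, are 1 of the 16 conditions. Their Spry4 mean was 4.01, while the means of the STHdhQ111 conditions lay between 2.63 and 3.02. They were also highest for Dusp6 and Jun, and r without them was not computed. Fosl1 was most like Plaur (0.940), the urokinase receptor gene, followed by Maff (0.922) and Ntmt1 (0.907). Fos was most like Cyr61 (0.924), Syvn1 (0.919) and Map2k3 (0.903), and Jun most like Phlda1 (0.953), Tpst2 (0.951) and Myl12a (0.950). Egr1 was most like Tspan9 (0.921), Bcar1 (0.919) and Lactb (0.901), Junb most like Fbxl15 (0.917), Mgp (0.901) and Cyr61 (0.887). Dusp5 was most like Snrpa1 (0.902), Lif (0.889) and Zc3h12a (0.873), and Spry2 most like Mthfsd (0.868), Stx5a (0.854) and Rassf1 (0.849).

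Of 30 other immediate-early genes tested, 17 rose and 3 fell with cyproheptadine, 16 rose and 1 fell with loxapine, and 12 rose and 1 fell with pizotifen. Of all genes, 17.5%, 10.1% and 8.86% rose and 18.2%, 11.8% and 9.07% fell with these 3 compounds in turn. With DKI 5 rose and 8 fell, and with meclizine 4 rose and 8 fell. Of all genes, 20.4% rose and 21.9% fell with DKI, and 13.1% rose and 13.6% fell with meclizine. In the direct comparison 24 were higher in Group A and 2 lower, beside 19.9% and 21.4% of all genes. The median difference was 0.37, beside -0.002 over all genes.

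Atf3, a stress-induced factor, rose in both groups, by 2.06 with DKI, 1.65 with cyproheptadine, 1.42 with meclizine, 1.05 with pizotifen and 0.97 with loxapine. Myc rose by 1.42 with DKI and 1.01 with meclizine. Arc fell by 0.98 with DKI and 0.82 with meclizine. Nr4a1, a nuclear receptor gene, rose by 1.03 with cyproheptadine, 0.97 with loxapine and 0.82 with pizotifen. Between the groups, Ctgf (1.40), Nr4a1 (1.09), Cyr61 (1.03) and Arc (0.69) differed most, all higher in Group A.

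Of 19 other feedback and target genes of ERK, 11 rose with loxapine, 9 with pizotifen and 8 with cyproheptadine, and 1 fell with cyproheptadine. The shares of all genes that rose were 10.1%, 8.86% and 17.5% in turn, and 18.2% fell with cyproheptadine. With DKI 5 rose and 6 fell, beside 20.4% and 21.9% of all genes, and with meclizine 3 rose and 5 fell, beside 13.1% and 13.6%. Etv5 and Etv4 encode ETS factors that follow ERK activity: Etv5 rose by 0.92 with cyproheptadine, 0.77 with DKI and 0.57 with meclizine, and Etv4 by 0.84 with loxapine and 0.76 with cyproheptadine. Plaur rose by 0.87 with cyproheptadine, 0.68 with DKI and 0.45 with meclizine. At most 4 genes are named per list and comparison, so compounds not named beside a gene may also have changed it. Spry1 fell by 0.57 with meclizine. Between the groups 13 were higher in Group A and 0 lower, beside 19.9% and 21.4% of all genes. The ligand gene Hbegf (0.81) and the EGF receptor inhibitor gene Errfi1 (0.71) led them. In STHdhQ7 cells 14 were higher and 4 lower, beside 29.2% and 26.6% of all genes, led by Ccnd1 (2.31), Etv4 (1.75), Etv5 (1.50) and Etv1 (1.33).

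Of 22 genes of the RAS, RAF, MEK and ERK cascade, 3 rose and 8 fell with cyproheptadine, 1 rose and 8 fell with loxapine, and 1 rose and 6 fell with DKI, where 18.2%, 11.8% and 21.9% of all genes fell. Their median difference was -0.06, -0.09 and -0.03 log2 units in turn, beside -0.0007, 0.0048 and -0.0058 over all genes. Cascade genes also fell against the vehicle with other compounds, 8 with sodium butyrate, 5 with cysteamine and 4 with nicotinamide. Loxapine was also compared with the mean of nicotinamide and nortriptyline, its partners in collection slot. There 4 cascade genes were higher, beside 11.9% of all genes, and 3 were lower (median 0.0041). The shares of all genes that fell in these 4 comparisons are not given here, so the counts of falls are descriptions only. In the comparison of loxapine with the vehicle, the compound and the slot cannot be told apart. Between Group A and Group B, 3 were higher and 3 lower, beside 19.9% and 21.4% of all genes. Mapk3, which encodes ERK1, fell by 0.55 with cyproheptadine, 0.35 with DKI and 0.28 with meclizine and with pizotifen. Gab1, an adaptor gene, fell by 0.55 with cyproheptadine and 0.47 with meclizine. Of 12 receptor genes tested, 8 fell and 1 rose with DKI and 5 fell with cyproheptadine and with meclizine, Egfr by 0.41 and 0.39 in the last 2. Of all genes, 21.9% fell and 20.4% rose with DKI, 18.2% fell with cyproheptadine and 13.6% fell with meclizine. Dusp1, a phosphatase mainly of p38 and JNK, rose by 0.56 with cyproheptadine, 0.48 with loxapine and 0.38 with pizotifen and was higher in Group A than Group B by 0.53.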

How the data were processed

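RNA-Seq of 48 samples was analysed, grouped by the sample labels, which also give doses and collection slots. Per the submitters' processing notes and the study's methods, reads were trimmed with Trimmomatic 0.36, aligned to the GRCm38.p5 transcriptome and quantified with RSEM, and the authors used DESeq2 for their own comparisons. The table deposited by the authors holds normalized abundances, read here as log2 values because they reach below 0 and behave as a regularized logarithm. The transformation is not given in the sources used here. No read counts are in it, so the depth is unknown and no count model was used.

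The values were used as deposited, with no pseudocount. With limma 3.58.1 in R 4.3.3, condition and collection day were fitted over all samples (30 residual degrees of freedom, moderated variances with a trend), and two-sided p-values were adjusted by Benjamini-Hochberg over 13409 genes with a symbol and a mean of at least 1. There were 27 comparisons, 15 with the vehicle, 8 within slots and 4 direct. Exact permutation tests of 3 samples against 3 cannot go below 0.1 and are not quoted. The scripts were tested on simulated data. Plots were made in Python 3.11.15 (matplotlib 3.10.9).

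The members and lists were chosen with earlier results of these data known. Besides the 10 members, the genes named are at most 4 called genes of largest difference per list and comparison, and the 3 most alike genes of each member. A compound not named beside a list gene may therefore also have changed it. The lists were other immediate-early genes, other ERK feedback and target genes, ERK cascade, upstream receptors, JNK and p38 phosphatases, serum response factors, handling and heat shock genes, and cell type markers. Replicate numbers follow the collection day apart from replicate 1 of cyproheptadine and DKI. Alternatives were other filters, other or no blocks, a term for collection time, rescaling, other variance models, fewer samples and omission of single libraries. A certain marker gene of these lists is not reported by itself here.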

Additional observations from a re-analysis of the deposited data

How the results depend on the processing

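The table holds no counts, so depth cannot be related to these results, and low values are compressed. No called difference of the 10 genes changed sign in any alternative run. Over alternatives other than omissions, 2338 single-gene values kept their side of the threshold, 37 gained a call and 28 lost it. Over omissions of single libraries 1717 kept it, 9 gained and 104 lost it. The cause of these changes was not tested. With the replicate number as a block, which pairs few samples (1 of 120 pairs of conditions had every correlation over 0.1, median of the means -0.0555), the members called became 1 for nicotinamide against the vehicle and 2 for sodium butyrate against its slot partners, and no other count moved by over 1.5 times. Without any block they were 1, 2 and, for trichostatin A against the vehicle, 2. With no filter they were 1 for sodium butyrate against the vehicle, 3 for meclizine and 4 for pizotifen against haloperidol, and 1 for DOP against its slot partners. With a mean of at least 5 they were 1 for nicotinamide against the vehicle and 2 for sodium butyrate against its partners. A collection time term or robust variances gave 1 for sodium butyrate against the vehicle and 1 for DOP against its partners. Rescaling, no trend or robust variances gave 2 for sodium butyrate against its partners. With only the compared samples fitted, the counts against the vehicle were 1 for trichostatin A, 1 for DOP, 2 for cysteamine and 3 for nicotinamide, those against slot partners 2 for trichostatin A, 2 for sodium butyrate, 6 for DOP and 2 for cysteamine, and that of meclizine against DKI 0. Omission of single libraries gave 3 to 4 for pizotifen, 3 to 4 for meclizine, 1 to 2 for sodium butyrate, 0 to 1 for DOP and 0 to 1 for nicotinamide against the vehicle, 1 to 5 for meclizine, 2 to 5 for pizotifen, 0 to 2 for sodium butyrate, 5 to 8 for loxapine and 0 to 2 for DOP against slot partners, 1 to 2 for cyproheptadine against loxapine and 0 to 5 for meclizine against DKI.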

Other observations

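Of 8 serum response factor genes, 3 fell with each of cyproheptadine, loxapine and meclizine, 2 with pizotifen, and 4 fell and 1 rose with DKI. The shares of all genes that fell were 18.2%, 11.8%, 13.6%, 9.07% and 21.9% in turn, and 20.4% rose with DKI. Mkl1 and Mkl2, coactivators of serum response factor, were among those that fell, by 0.35 and 0.33 with cyproheptadine. Between the groups 3 were higher in Group A and 1 lower, beside 19.9% and 21.4% of all genes, with Srf itself at 0.24. Of 4 phosphatases of JNK and p38, 2 rose with cyproheptadine and 1 with each of loxapine and pizotifen, 1 fell with each of DKI and meclizine, and 3 were higher in Group A than in Group B. The shares of all genes were 17.5%, 10.1% and 8.86% for those rises and 21.9% and 13.6% for those falls. Between the groups 19.9% of all genes were higher in Group A.

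Of 6 handling and heat shock genes, loxapine and pizotifen changed 0 by limma, cyproheptadine raised 2 and lowered 1, meclizine raised 1 and lowered 2, and DKI raised 1 and lowered 3. Of all genes, loxapine raised 10.1% and lowered 11.8%, pizotifen 8.86% and 9.07%, and cyproheptadine 17.5% and 18.2%. The shares were 13.1% and 13.6% for meclizine and 20.4% and 21.9% for DKI. Hspa1b fell by 0.80 with DKI, 0.44 with meclizine and 0.38 with cyproheptadine. In STHdhQ7 cells 2 were higher and 2 lower, beside 29.2% and 26.6% of all genes, led by Hspb1 (1.16). In Group A against Group B 3 were higher and 1 lower, beside 19.9% and 21.4% of all genes. The median difference was 0.16 beside -0.002 over all genes: Hspa1b was higher by 0.43, Hspb1 by 0.25 and Dnajb1 by 0.23, and Hspa8 differed by -0.14. The immediate-early genes that were higher in Group A moved in the same direction, and the part of handling in those differences was not tested.

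Among the other marker lists, the summed level of the 5 astrocyte markers was 6.64 to 7.10 in Group B, 6.65 to 7.31 in Group A and 7.24 to 7.38 in Q111SST, with Gfap near -0.95. That of the 6 microglia markers was 10.04 to 10.78, 10.16 to 11.05 and 10.64 to 10.89, carried by Ptprc, while Cx3cr1 (-1.81) and Aif1 (-2.18) were near the floor. That of the striatal markers was 10.16 to 10.31, 10.12 to 10.37 and 10.32 to 10.48, and that of the neuron markers 8.28 to 8.46, 7.94 to 8.39 and 8.27 to 8.76. That of the oligodendrocyte markers was 4.32 to 4.47, 4.18 to 4.36 and 4.18 to 4.32, and that of the endothelial markers 7.83 to 9.29, 7.69 to 9.35 and 7.63 to 9.17. Their part in the differences of the 10 genes was not tested.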
